A study of Mus musculus with 8 samples.

Results

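The genes described here carry pyruvate into mitochondria and turn it into acetyl-CoA: Mpc1 and Mpc2 of the mitochondrial pyruvate carrier, Pdha1, Pdhb, Dlat, Dld and Pdhx of the pyruvate dehydrogenase complex, and the kinase genes Pdk1, Pdk2 and Pdk4. They were chosen by name, 10 of the 49315 genes in the count table, and all 10 passed the low-count filter that left 17450 genes for testing. Bulk RNA sequencing had been run on femoral shafts of 4 male Girk3-/- mice (KO) and 4 male wild-type mice (WT). All 8 mice were 24 weeks old and carried the strain label C57BL6. Kcnj9 encodes Girk3, a potassium channel protein opened by G proteins. The labels do not describe the deleted segment or the origin of the allele. The bone was homogenised whole after removal of its ends and flushing of the marrow.

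The libraries held between 30937465 and 32348592 counts in KO and between 30087749 and 36553713 in WT. Kcnj9 had 0 to 8 counts in KO libraries and 6 to 23 in WT libraries, too few to check the genotype labels. Bone markers were present in every library: 14 osteoblast and osteocyte genes, Col1a1 and Dmp1 among them, took 0.877% to 1.99% of the counts in KO and 0.954% to 2.21% in WT. A list of 22 skeletal muscle genes took more, 13.0% to 17.3% in KO and 9.23% to 14.4% in WT (two-sided exact permutation p = 0.257, with 0.0286 the smallest that 4 against 4 libraries allow). KO replicate 4 had the highest muscle share and WT replicate 4 the lowest, and these libraries stood at opposite ends of the first principal component, which held 33.5% of the variance. Values without this pair of libraries stand beside the members' results. Erythroid and neutrophil genes took 0.446% to 0.955% and 0.0688% to 0.781% of the counts in KO, and 0.376% to 1.40% and 0.161% to 0.679% in WT. Transcripts of the mitochondrial genome took 7.36%, 5.84%, 7.09% and 11.6% of the counts in KO replicates 1 to 4, against 11.4%, 11.9%, 10.7% and 8.46% in WT replicates 1 to 4 (two-sided exact permutation p = 0.114). KO replicates 1 to 3 lay below all WT libraries on that measure and KO replicate 4 did not, and its part in the results was not tested. In whole bone, a change in the number of cells of a type and a change in RNA per cell cannot be told apart.

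Pyruvate made by glycolysis crosses the inner mitochondrial membrane through a carrier built of Mpc1 and Mpc2, and each subunit is unstable without the other. The pyruvate dehydrogenase complex then removes carbon dioxide from pyruvate and passes the remaining acetyl group to coenzyme A. Kinases of the Pdk family switch the complex off by phosphorylating its E1 alpha subunit, Pdha1, and phosphatases switch it on again. Skeletal muscle and other oxidative tissues are rich in all of these proteins, and in fasting muscle Pdk4 is induced so that glucose is spared.

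The carrier genes are shown first by their promoters, because both subunits are needed for 1 carrier and the groups were separate for Mpc2 and overlapped for Mpc1. The windows are from RefSeq (GRCm38.p6) and hold 250 bases before and 50 bases after a start that RefSeq gives. These starts lie inside the GENCODE spans of Mpc1 and Mpc2 given below, and of the 2 windows listed for Mpc1 the one nearest to the GENCODE start is shown. Mpc1 lies on the plus strand (window chr17:8283537-8283836) and Mpc2 on the plus strand (window chr1:165461010-165461309). Capitals mark matches on either strand. The motifs searched were the CCAAT box, the GC box (letters GGGCGG), the half-site of nuclear receptors such as the estrogen-related receptors (letters AAGGTCA), the FOXO site (letters GTAAACA), the hypoxia response core (letters ACGTG) and the NRF1 core. Matches to different motifs did not overlap in these windows.
Mpc1: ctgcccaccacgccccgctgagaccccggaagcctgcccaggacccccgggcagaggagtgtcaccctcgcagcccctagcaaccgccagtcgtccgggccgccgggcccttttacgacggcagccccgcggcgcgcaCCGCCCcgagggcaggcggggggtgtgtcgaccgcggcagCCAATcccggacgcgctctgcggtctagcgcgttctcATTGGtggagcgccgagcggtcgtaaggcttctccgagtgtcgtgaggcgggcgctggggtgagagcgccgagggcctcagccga
Mpc2: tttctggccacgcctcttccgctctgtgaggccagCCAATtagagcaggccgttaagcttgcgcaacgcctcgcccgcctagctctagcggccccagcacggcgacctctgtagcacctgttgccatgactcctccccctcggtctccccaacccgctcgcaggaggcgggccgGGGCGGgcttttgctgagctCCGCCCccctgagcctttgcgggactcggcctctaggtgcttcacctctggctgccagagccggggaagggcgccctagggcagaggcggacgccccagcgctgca
The Mpc1 window held 2 matches to CCAAT and 1 to the GC box, and the Mpc2 window 1 match to CCAAT and 2 to the GC box. Of all 32851 promoter windows of this length, 37.4% held CCAAT and 35.7% the GC box. Neither window held the other motifs, which were found in 4.72% (nuclear receptor half-site), 3.65% (FOXO site), 19.6% (hypoxia core) and 0.971% (NRF1 core) of all windows.

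Mpc2 had the largest log2 fold change of the 10 members in edgeR, although it did not pass the test. Levels below are in CPM, the usual count per unit of library size, after TMM had adjusted library sizes for differences in composition. Mpc2 (ENSMUSG00000026568, chromosome 1, 165460637 to 165481214, GRCm38) stood at 289, 245, 239 and 215 CPM in KO replicates 1 to 4, against 155, 141, 171 and 119 CPM in WT replicates 1 to 4. Every KO library lay above every WT library. The means were 247 ± 30.8 CPM in KO and 147 ± 22.3 CPM in WT (SD, n = 4 each), a fold of 1.69 with a 95% interval of 1.33 to 2.14. The log2 fold change was 0.75 (SE 0.15, unadjusted p = 0.000599), and it missed the threshold of 0.05 in edgeR's quasi-likelihood test after Benjamini-Hochberg adjustment over all 17450 genes (adjusted p = 0.0769). That test called 0 of the 10 members and 0.0115% of all genes. Mpc2 did pass with DESeq2 (adjusted p = 0.000518), limma-voom (0.0221), and edgeR with a muscle score (0.0226) or a marrow score (0.0155) as a covariate or without both replicates 4 (0.0373). These called 6.48%, 4.02%, 9.03%, 7.41% and 2.62% of the genes they tested. Over all 20 other settings its log2 fold change lay between 0.60 and 0.84 and its adjusted p between 0.000518 and 0.481.

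Mpc1, the partner subunit, did not differ by more than the spread between mice. Mpc1 (ENSMUSG00000023861, chromosome 17, 8282904 to 8297661) stood at 106, 84.4, 105 and 141 CPM in KO replicates 1 to 4, against 108, 102, 118 and 74.7 CPM in WT replicates 1 to 4. The groups overlapped widely, with the highest value in KO replicate 4 and the lowest in WT replicate 4. Its log2 fold change was 0.12 (95% interval -0.29 to 0.53, edgeR adjusted p = 0.785), and the value was -0.15 without both replicates 4. Reads of Mpc1 may be shared with its pseudogene Mpc1-ps, which had 5.68 to 14.7 CPM, and with the antisense transcript 4930506C21Rik (1.22 to 2.70 CPM), whose exons cover 23.1% of the exonic bases of Mpc1, since the strand setting of the counting is not given in the sources used here.

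The balance between the carrier transcripts followed from these values. On a scale per length (CPM per kilobase of exon), Mpc2 over Mpc1 was 0.770, 0.825, 0.646 and 0.433 in KO replicates 1 to 4, against 0.406, 0.395, 0.413 and 0.450 in WT replicates 1 to 4. KO replicates 1 to 3 thus lay above all WT libraries, and KO replicate 4 lay within the WT range. The means were 0.668 ± 0.174 in KO and 0.416 ± 0.0238 in WT (SD, n = 4 each), with no test, since the genes were chosen with earlier results known. The ratio shows the balance within a library and not the protein stoichiometry. Its size depends on the length taken for Mpc2, whose 7344 exonic bases include long transcripts while its principal transcript has 1025.

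**Figure D1:**
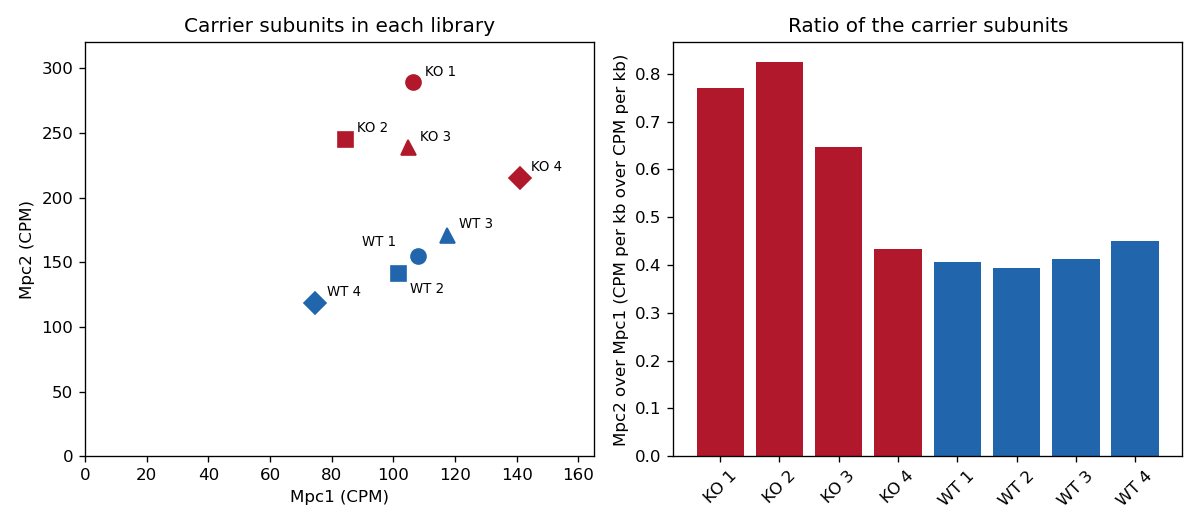
Carrier subunits in each library. Left, Mpc2 against Mpc1, both in CPM, with 1 point per library (KO red, WT blue). Right, bars of Mpc2 over Mpc1 in CPM per kilobase of exon. KO libraries sit at 215 to 289 CPM of Mpc2 and WT libraries at 119 to 171 CPM, while Mpc1 overlaps, and the ratio in KO replicate 4 (0.433) lies within the WT range.

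Of the 5 subunits of the pyruvate dehydrogenase complex, 3 had separate groups and 2 had overlapping ones, where 13.1% of all genes had separate groups and 7.33% had every KO library above every WT library. Pdhb, the beta subunit of the E1 enzyme that decarboxylates pyruvate, Dld, the E3 enzyme that reoxidises the lipoyl arm, and Pdhx, which anchors E3 to the core, each had groups that did not overlap, with KO above WT. Pdha1, the alpha subunit of E1 and the site of phosphorylation, and Dlat, the E2 enzyme that carries the lipoyl arms, overlapped. On library totals without TMM the groups of Dld and Pdhx would overlap too. None of the 5 passed in edgeR, with adjusted p between 0.209 and 0.725. Their log2 fold changes were all positive, between 0.16 and 0.37, with a median of 0.34, against a median of -0.01 over all genes tested.

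The E1 subunits are made from genes on different chromosomes, Pdha1 on the X chromosome (160122209 to 160138413, minus strand) and Pdhb on chromosome 14 (8165996 to 8173025, minus strand). Their promoter windows (RefSeq, GRCm38.p6, minus strand, chrX:160138381-160138680 and chr14:8172943-8173242) are shown because these subunits pair in 1 enzyme. Capitals mark the same motifs as above.
Pdha1: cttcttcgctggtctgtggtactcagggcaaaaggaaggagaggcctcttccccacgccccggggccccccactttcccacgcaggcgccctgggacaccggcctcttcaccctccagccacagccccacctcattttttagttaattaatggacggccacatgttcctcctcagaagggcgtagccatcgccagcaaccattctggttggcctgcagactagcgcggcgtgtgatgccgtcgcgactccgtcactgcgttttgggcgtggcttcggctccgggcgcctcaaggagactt
Pdhb: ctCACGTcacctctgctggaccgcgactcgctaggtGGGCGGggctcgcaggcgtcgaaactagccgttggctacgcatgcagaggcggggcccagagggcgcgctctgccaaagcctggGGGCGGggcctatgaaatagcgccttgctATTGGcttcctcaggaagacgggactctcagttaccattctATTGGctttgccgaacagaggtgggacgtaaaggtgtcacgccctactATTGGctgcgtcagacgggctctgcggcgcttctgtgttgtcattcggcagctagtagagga
The Pdhb window held 3 matches to CCAAT, 2 to the GC box and 1 to the hypoxia core. The Pdha1 window held none of the 6 motifs. Over the windows of all 10 members, 7 held CCAAT, 6 the GC box, 2 the hypoxia core and 0 any of the other motifs. The shares over all windows were 37.4%, 35.7% and 19.6%, and 0.971% to 4.72% for each of the other motifs. These are matches of letters in a short window and say nothing about binding.

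Pdhb stood at 297, 291, 293 and 330.1 CPM in KO replicates 1 to 4, against 264, 225, 269.7 and 197 CPM in WT replicates 1 to 4. The lowest KO library was above the highest WT library by less than the spread within WT. The log2 fold change was 0.34 (SE 0.14, 95% interval 0.02 to 0.66, edgeR adjusted p = 0.245), and the value was 0.22 without both replicates 4. Pdha1 stood at 421, 510.2, 508 and 595 CPM in KO replicates 1 to 4, against 565, 430.0, 513 and 301 CPM in WT replicates 1 to 4. The groups overlapped, and WT replicate 1 exceeded 3 of the 4 KO libraries. The log2 fold change of Pdha1 was 0.17 (95% interval -0.30 to 0.64, edgeR adjusted p = 0.725), and the value was -0.07 without both replicates 4. Pdha1 shares 16.1% of its exonic bases with Map3k15 on the other strand, which had 2.43 to 6.46 CPM. The Pdhb over Pdha1 ratio per length averaged 0.582 ± 0.0678 in KO and 0.525 ± 0.0765 in WT (SD, n = 4 each) and overlapped.

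The remaining subunits belong to the core and to the E3 step. Pdhx lies on chromosome 2 (103021075 to 103073513), Dld on chromosome 12 (31331277 to 31351453) and Dlat on chromosome 9 (50634633 to 50659780), all on the minus strand. Pdhx stood at 69.1, 70.4, 76.0 and 71.8 CPM in KO replicates 1 to 4, against 65.2, 50.2, 63.8 and 43.3 CPM in WT replicates 1 to 4. Its KO libraries lay close together, with an SD of 3.01 CPM against 10.6 CPM in WT, and its log2 fold change was 0.37 (SE 0.14, edgeR adjusted p = 0.209), or 0.27 without both replicates 4. Dld stood at 219, 216, 240.3 and 248 CPM in KO replicates 1 to 4, against 211, 169, 204 and 140.0 CPM in WT replicates 1 to 4. The gap between the groups was narrow, and the log2 fold change was 0.35 (SE 0.15, edgeR adjusted p = 0.265), or 0.21 without both replicates 4. Dld serves the oxoglutarate, branched-chain and glycine complexes as well. Dlat stood at 129, 155, 167 and 173 CPM in KO replicates 1 to 4, against 182, 127, 154 and 93.8 CPM in WT replicates 1 to 4. Dlat therefore had its highest value in WT replicate 1, and its log2 fold change was 0.16 (95% interval -0.28 to 0.60, edgeR adjusted p = 0.724), or -0.04 without both replicates 4.

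**Figure D2:**
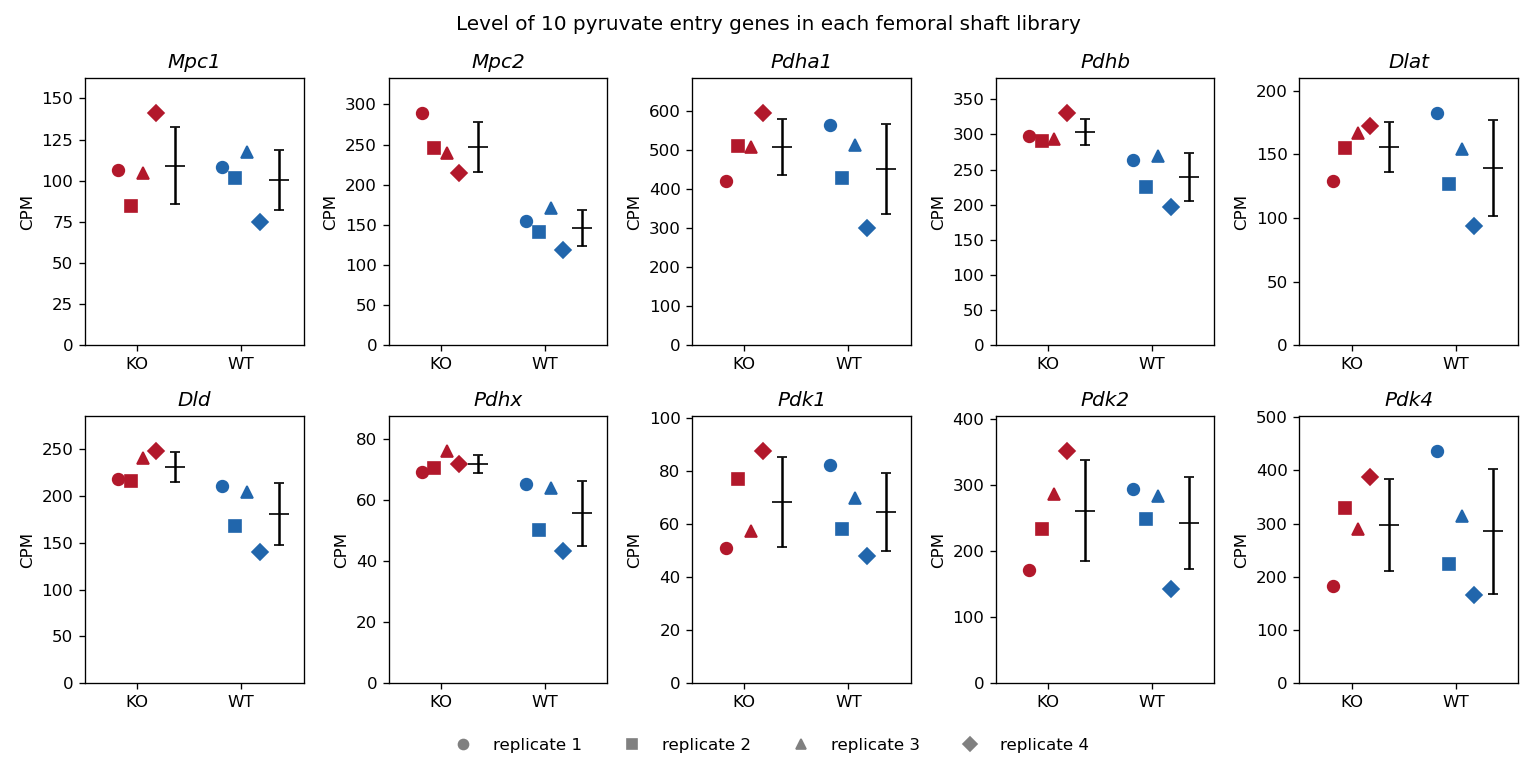
Level of each of the 10 genes in each library, in CPM, with KO red on the left and WT blue on the right of every panel. Symbols mark replicate numbers and the bars beside them the mean and SD of 4 libraries. On TMM-scaled library sizes, Mpc2, Pdhb, Dld and Pdhx have separate groups, and WT replicate 4 is the lowest library in all 10 panels.

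The kinase genes showed no difference beyond the spread between mice. Pdk4 lies on chromosome 6 (5483351 to 5496309), Pdk2 on chromosome 11 (95026258 to 95041354) and Pdk1 on chromosome 2 (71873224 to 71903858). Pdk4, the kinase induced by fasting, stood at 183, 329, 289.9 and 389 CPM in KO replicates 1 to 4, against 437, 225, 315 and 166 CPM in WT replicates 1 to 4. The WT libraries spanned the whole KO range. The log2 fold change of Pdk4 was 0.06, with a 95% interval of -0.63 to 0.75 (edgeR adjusted p = 0.945), so folds between 0.646 and 1.68 lie inside the interval. Pdk2, the broadly expressed isoform, stood at 172, 234, 287 and 352 CPM in KO replicates 1 to 4, against 294, 249, 284 and 143 CPM in WT replicates 1 to 4. Its groups overlapped, and its log2 fold change was 0.11 (95% interval -0.49 to 0.70, edgeR adjusted p = 0.874). Pdk1, which is induced by hypoxia, stood at 51.1, 76.9, 57.4 and 87.5 CPM in KO replicates 1 to 4, against 82.1, 58.3, 69.7 and 47.8 CPM in WT replicates 1 to 4, with a log2 fold change of 0.08 (95% interval -0.38 to 0.54, edgeR adjusted p = 0.877). These values went below 0 without both replicates 4, at -0.28 for Pdk4, -0.25 for Pdk2 and -0.18 for Pdk1. With library totals in place of TMM, Pdk4 and Pdk1 were at -0.03 and -0.01, where the median of all genes was at -0.11.

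Per length, Pdk4 and Pdk2 were the main kinase transcripts of these whole-shaft libraries in both genotypes. Muscle genes took 9.23% to 17.3% of the counts in them, and which cells the kinase transcripts came from was not tested. Pdk4 averaged 84.8 ± 24.6 CPM per kilobase in KO and 81.3 ± 33.6 in WT, and Pdk2 82.6 ± 24.2 in KO and 76.6 ± 21.9 in WT (SD, n = 4 each). Pdk1 averaged 8.77 ± 2.18 in KO and 8.29 ± 1.90 in WT, and Pdk3, a kinase outside the chosen genes, 3.72 ± 1.06 in KO and 3.58 ± 0.939 in WT, all per kilobase. Pdk4 made up 46.9 ± 3.33% of the summed level of the 4 kinases in KO and 47.0 ± 5.07% in WT (SD, n = 4 each). The share of Pdk2 was 45.8 ± 3.61% in KO and 45.5 ± 4.66% in WT. Pdk4 and Pdk2 did not differ in level beyond their spread, and their order depended on the gene length used. The summed kinase level over Pdha1 was 1.04, 1.33, 1.36 and 1.48 in KO replicates 1 to 4, against 1.53, 1.33, 1.39 and 1.28 in WT replicates 1 to 4, with overlapping groups.

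**Figure D3:**
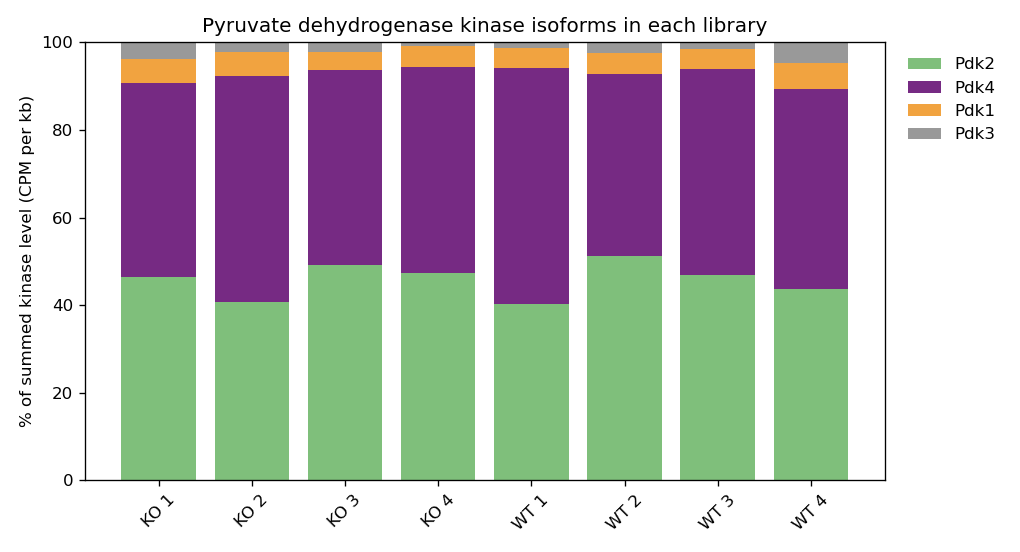
Share of each kinase isoform in the summed kinase level of a library, in percent of CPM per kilobase of exon, for 4 KO libraries (left) and 4 WT libraries (right). Pdk2 and Pdk4 fill most of every bar, with Pdk4 at 44.4% to 51.6% in KO and 41.6% to 53.8% in WT.

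In the order of levels per kilobase of all exonic bases Pdha1 came first, at 136 ± 19.1 in KO and 121 ± 30.8 in WT (SD, n = 4 each). Pdk4, Pdk2 and Pdhb followed, with overall means of 83.1, 79.6 and 70.2 CPM per kilobase. Dld (55.9), Mpc1 (50.3), Dlat (30.2), Mpc2 (26.8), Pdhx (16.2) and Pdk1 (8.53) came below. Each gene's range over the 8 libraries overlapped that of its neighbour in the order, least for Pdhx (11.0 to 19.3) and Pdk1 (6.15 to 11.3). The order depends on the gene length used. With principal transcripts of 1025 and 1513 bases, Mpc2 and Pdhb would stand above Pdha1 (2848 bases). Pdk4 (3484 bases) would then fall below Pdk2 (2246 bases) and Mpc1 (958 bases), so the places are uncertain.

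All 10 members had a positive log2 fold change, where 48.6% of all genes did, but 4 of 10 with the muscle score as a covariate or without both replicates 4, 6 of 10 without WT replicate 4 alone or KO replicate 4 alone, 7 of 10 with limma-voom, 8 of 10 with library totals, and 9 of 10 without WT replicate 2 or with the trend in principal transcript length removed. Their median log2 fold change was 0.17, and it was 0.01 without WT replicate 4, 0.10 without KO replicate 4, -0.05 without both, 0.33 without WT replicate 1, 0.25 without KO replicate 1, 0.08 with library totals and -0.12 with the muscle covariate. An unadjusted p under 0.05 was reached by 4 members, all higher in KO (Mpc2, Pdhb, Dld and Pdhx), against 9.59% of all genes in that direction, and 0 lower, against 8.59%. In TMM-scaled CPM these 4 had every KO library above every WT library, against 7.33% of all genes. In the same CPM 0 members had every KO library below, against 5.78%. The TMM factor was 0.831 in KO replicate 4 and 1.18 in WT replicate 4. On library totals without TMM the groups of Dld and Pdhx would overlap, with KO replicate 4 below WT replicate 1. The share of all genes on that scale was not computed. After TMM scaling WT replicate 4 was the lowest library for all 10 members and KO replicate 4 the highest for 6. On library totals WT replicate 4 would not be the lowest for Pdhb, Pdhx, Pdk1 and Pdk4. The count of members at that p was 1 without WT replicate 4 (17.3% of all genes), 1 without KO replicate 3 (15.0%), 1 without WT replicate 2 (13.7%) and 1 without both replicates 4 (23.7%).

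Several members had their extreme values in the libraries with extreme muscle shares. In KO replicates 1 to 4 muscle genes took 13.0%, 13.2%, 15.5% and 17.3% of the counts, and in WT replicates 1 to 4 they took 13.0%, 13.8%, 14.4% and 9.23%. Pdk2 and Dlat followed that order within KO, with their lowest level in replicate 1 and their highest in replicate 4. The other members, Pdk4 among them, did not rise in that order. All 10 members were lowest in WT replicate 4 after TMM scaling. Pdk4 and Dlat were highest of all libraries in WT replicate 1, where muscle genes took 13.0% of the counts. Mpc2 ran the other way within KO, from its highest level in replicate 1 to its lowest in replicate 4. In WT, Mpc2 was highest in replicate 3 and lowest in replicate 4, the libraries with the highest and the lowest muscle share of that group. With the muscle score as a covariate the log2 fold change of Mpc2 was 0.72, against 0.75 without it. The same covariate placed Pdhb at 0.19, Dld at 0.18 and Pdhx at 0.23, and none of these passed (edgeR adjusted p = 0.357, 0.421 and 0.298). It placed Pdha1 at -0.14, Dlat at -0.11, Mpc1 at -0.15, Pdk1 at -0.30, Pdk2 at -0.34 and Pdk4 at -0.45, with adjusted p of at least 0.176. Of the 22 muscle genes, 18 were above 0 and 4 below (median log2 fold change 0.43), and 0 passed in edgeR. An unadjusted p under 0.05 was reached by 5 of them, all higher in KO, where 18.2% of all genes reached it and 9.59% with KO higher.

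**Figure D4:**
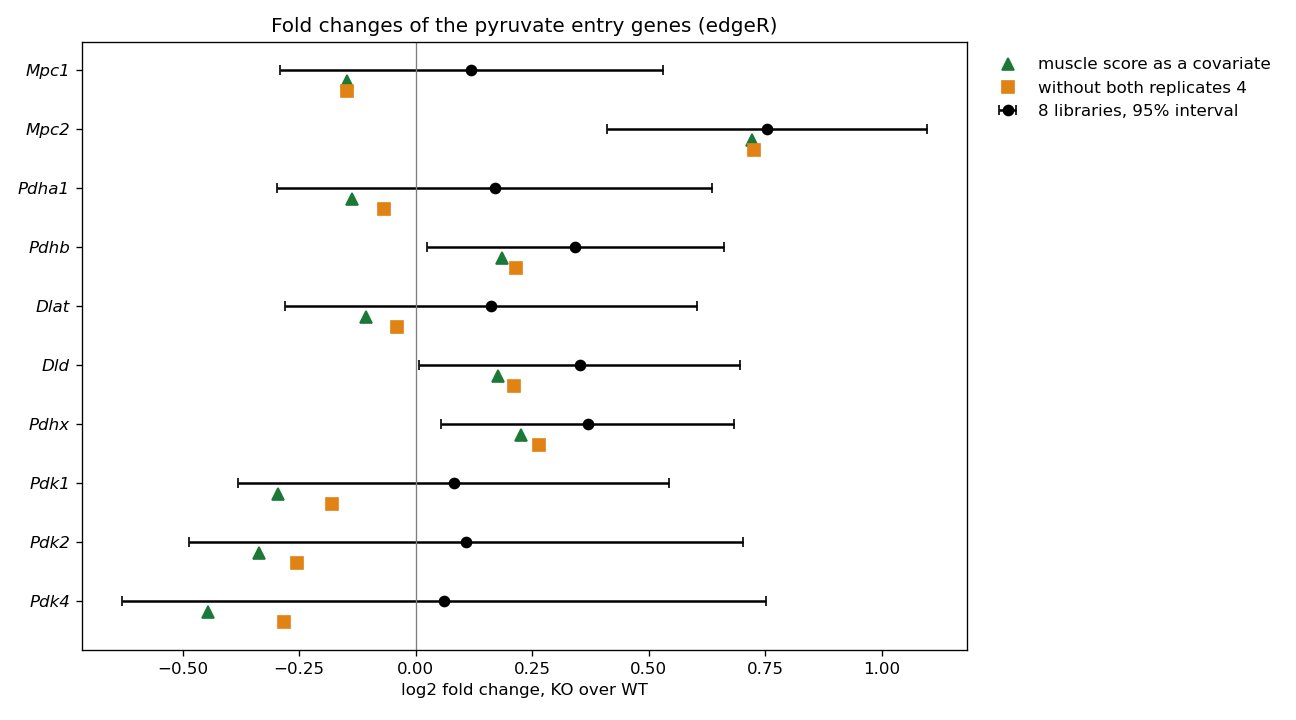
Log2 fold change of each gene, KO over WT, from edgeR. Black points and bars give the value and its 95% interval over 8 libraries, green triangles the value with a muscle score as a covariate and orange squares the value without KO replicate 4 and WT replicate 4. Mpc2 stays between 0.72 and 0.75 on all 3, while Mpc1, Pdha1, Dlat and the kinases go below 0 with the covariate and without replicates 4.

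Mpc2 lies on the same chromosome as the deleted gene, 6.84 Mb from Kcnj9 (172320501 to 172329318). Of 217 tested genes within 10 Mb of Kcnj9, 13.8% had groups that did not overlap, against 13.1% of all genes, and 6.91% had every KO library above every WT library, against 7.33%. An unadjusted p under 0.05 was reached by 23.0% of them, against 18.2% of all genes, and by 10.6% with KO higher. The genes with the largest fitted log2 fold changes in this window, named after their values were seen, were Itln1 (8.38), Ifi202b (6.59) and Ifi213 (-6.17), all within 1.63 Mb of Kcnj9 and so nearer to it than Mpc2. The nearest tested genes on both sides of Mpc2 had overlapping groups, with log2 fold changes of 0.03 for Dcaf6 and -0.01 for Mpzl1. Among 8 neighbours in order of end position, equally many on each side, Tiprl (0.26) had separate groups. The other values of these neighbours lay between -0.37 and 0.11. Gm38190, just beyond Tiprl, was at -0.70 with overlapping groups. Whether DNA around the deletion came from another strain is not stated in the labels, and its part in the level of Mpc2 was not tested.

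**Figure D5:**
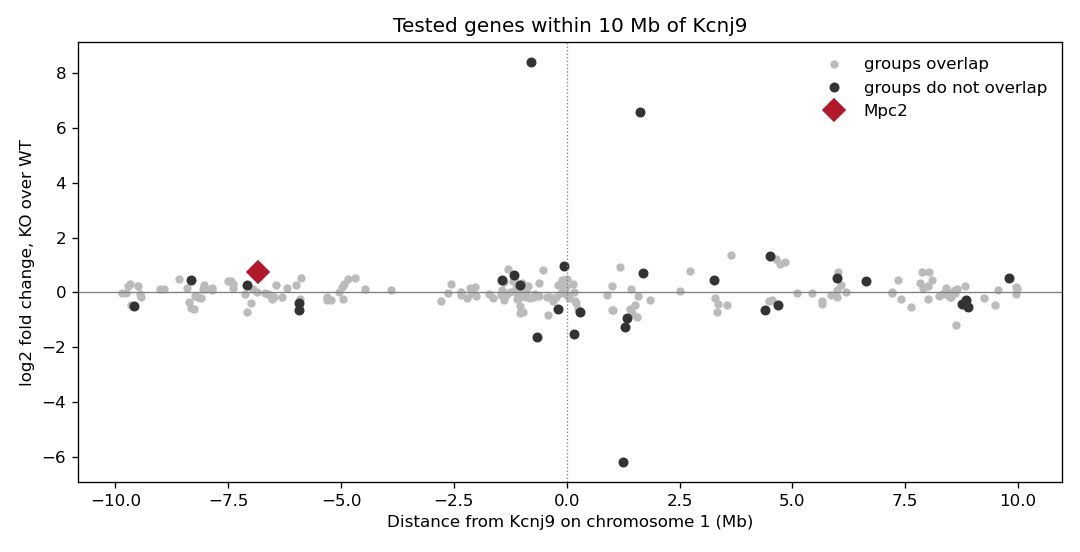
Log2 fold change, KO over WT, of the 217 tested genes within 10 Mb of Kcnj9, by distance from Kcnj9 in Mb (negative towards lower coordinates). Dark points have KO and WT groups that do not overlap, and those far from 0 are Itln1, Ifi202b and Ifi213. Mpc2 is the red diamond at 6.84 Mb on the negative side and 0.75. It stands above its 8 neighbours in order of end position, equally many on each side, which lie between -0.37 and 0.26.

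Fold changes over all genes went down with gene length, from a median of 0.21 in the decile with the fewest exonic bases to -0.19 in the decile with the most. By all of its exonic bases Mpc2 falls in decile 9, with a median of -0.12, and by its principal transcript in decile 2, with a median of 0.21. With the trend of each library with length and GC content removed, Mpc2 was at 0.84 on the first length (edgeR adjusted p = 0.123) and at 0.60 on the second (0.156). Pdhb went to 0.34 and 0.24 on these lengths, and Dld to 0.34 and 0.35.

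The genes whose level ran most like that of Mpc2 over the 8 libraries lay on other chromosomes. Likeness was Pearson's r of log2 CPM among 9698 genes of at least 10 CPM, from any chromosome. It was taken over KO and WT together, so a difference between the groups enters r. Closest to Mpc2 were Fdx1, a mitochondrial ferredoxin (r = 0.994), Atp5d, a subunit of ATP synthase (r = 0.992), Ndufb9, a subunit of complex I (r = 0.992), and the gene BC003965 (r = 0.988). Their own log2 fold changes were 0.73, 0.71, 0.76 and 0.42. Closest to Mpc1 were Mrps5 of the mitochondrial ribosome (r = 0.986), Pdlim3 (0.985), Mapre3 (0.982) and Cobl (0.981), with log2 fold changes between 0.03 and 0.22. Closest to Pdk4 were Tmem201 (r = 0.991), Ogdh, the E1 enzyme of the oxoglutarate complex (0.986), Akap1, an anchoring protein of the outer mitochondrial membrane (0.984), and Fam210a (0.971), with log2 fold changes between -0.03 and 0.02.

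Of 16 other genes that regulate or lipoylate the complex, 14 had log2 fold changes above 0 and 2 below, with a median of 0.23, and 0 passed in edgeR. The lists below were chosen with earlier results known, and over all genes the median was -0.01. Fdx1, which is needed for protein lipoylation, stood at 40.8, 34.1, 35.3 and 29.8 CPM in KO replicates 1 to 4, against 23.5, 20.3, 23.7 and 16.8 CPM in WT replicates 1 to 4. No KO library overlapped with WT, and the fitted difference was 0.73 in log2 units (SE 0.14, edgeR adjusted p = 0.0728). Lias, the lipoate synthase, averaged 49.2 ± 4.81 CPM in KO and 38.9 ± 3.32 CPM in WT (SD, n = 4 each, log2 fold change 0.34, edgeR adjusted p = 0.160). These 2 of the 16 had an unadjusted p under 0.05, both higher in KO, where 18.2% of all genes reached that p and 9.59% with KO higher.

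The complexes that share Dld and lipoate with pyruvate dehydrogenase had 11 of 12 genes tested, 7 positive and 4 negative, with a median of 0.14. Gcsh, the lipoyl-carrying protein of the glycine cleavage system, stood at 43.5, 43.1, 45.8 and 47.3 CPM in KO replicates 1 to 4, against 33.8, 28.6, 33.3 and 25.1 CPM in WT replicates 1 to 4. No KO library overlapped with WT, and the fitted difference was 0.57 in log2 units (SE 0.12, edgeR adjusted p = 0.0769). Bckdk, the kinase of the branched-chain complex, was at 0.34 (edgeR adjusted p = 0.219). In edgeR 0 genes of this list passed, and 2 of 11 had an unadjusted p under 0.05, both higher in KO. Of all genes 18.2% reached that p, and 9.59% with KO higher. Fdx1 and Gcsh passed with DESeq2, with limma-voom and with either covariate, and without both replicates 4 Fdx1 passed and Gcsh did not.

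Genes of other pyruvate and lactate routes had 12 log2 fold changes above 0 and 5 below among 17 (median 0.20). Ldhb, the lactate dehydrogenase subunit of oxidative tissue, averaged 228 ± 72.9 CPM in KO and 132 ± 45.1 CPM in WT (SD, n = 4 each), with overlapping groups, and was at 0.79 in log2 units (edgeR adjusted p = 0.190). Gpt, which interconverts pyruvate and alanine, was at 0.35 (edgeR adjusted p = 0.212). Genes that make, move or use acetyl-CoA had 4 positive and 7 negative values among 11, with a median of -0.02. Mlycd, which turns malonyl-CoA back into acetyl-CoA, was at 0.44 and Acaca, an acetyl-CoA carboxylase, at -0.26. In edgeR 0 genes of both lists passed. An unadjusted p under 0.05 was reached by 2 of 17 and 1 of 11, all higher in KO. Of all genes 18.2% reached that p, and 9.59% with KO higher.

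Factors known to act on Pdk4, with other targets of PPAR receptors, had 14 log2 fold changes above 0 and 8 below among 22 (median 0.07). Acot1, an acyl-CoA thioesterase, was at 0.79 (edgeR adjusted p = 0.160) at a low level of 2.16 ± 0.546 CPM in KO and 1.25 ± 0.283 CPM in WT (SD, n = 4 each). Foxo1, a transcription factor that acts on Pdk4, was at 0.33 (edgeR adjusted p = 0.207). Foxo3, a related factor named after its value was seen, was in the other direction at -0.40 (unadjusted p = 0.0338, edgeR adjusted p = 0.233). Hypoxia-inducible genes, the group to which Pdk1 belongs, had 10 positive and 8 negative values among 18, with a median of 0.11. Slc2a1, a glucose transporter, was at 0.33 and Car9, a carbonic anhydrase, at -0.42. In edgeR 0 genes of either list passed, and 3 of 22 and 1 of 18 had an unadjusted p under 0.05. Of the 3, 2 were higher in KO and 1 lower, and the 1 hypoxia gene was higher. Of all genes 18.2% reached that p, 9.59% with KO higher and 8.59% with KO lower.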

How the data were processed

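The authors deposited 1 table of raw counts per Ensembl gene for 8 libraries. The submitters' processing notes list featureCounts, Subread 1.5.2, STAR 2.5.2b, bcl2fastq 2.17 and the build mm10, without roles. Settings and annotation release were not given there. Symbols, positions and lengths came from GENCODE M21 (GRCm38), which matched 48970 of 49315 IDs. Groups and replicate numbers came from the sample titles. The labels state 4 mice per group, and no 2 libraries agreed within sampling noise (chi-square of at least 39.4 per degree of freedom).

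KO was compared with WT in edgeR 4.0.16 (R 4.3.3) by the quasi-likelihood test with robust dispersion, TMM and filterByExpr, with group as the only term, and adjusted over all 17450 genes by Benjamini-Hochberg at 0.05. Log2 CPM used a prior count of 2. Alternatives were DESeq2 1.42.0, limma-voom (limma 3.58.1) with quality weights, other scalings and filters, covariates, a replicate block, removal of length and GC trends (loess span 0.3), and omitted libraries. The code was tested on simulated counts. The members and lists were chosen with earlier results of these data known. Named genes are all members, the 2 genes of smallest p per list (no list held a called gene), and the 4 most alike to Mpc1, Mpc2 and Pdk4. Dcaf6, Mpzl1, Tiprl, Gm38190, Itln1, Ifi202b, Ifi213, Foxo3 and Pdk3 were added after their values were seen. Principal transcript lengths were an alternative chosen after seeing the data. Intervals are for the fitted difference between the groups, from its SE over these 8 libraries, and are not the spread of single libraries.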

Additional observations from a re-analysis of the deposited data

Results flagged for a closer look

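Among 38 sets of 4 libraries (10 levels and 9 ratios or shares, in KO and in WT), 2 had a library set far apart from the other 3, about the number that chance gives at 1 in 20. Pdhb stood at 330.1 CPM in KO replicate 4, above the 291 to 297 CPM of the other KO libraries. The ratio of Pdhb to Pdha1 per length was 0.683 in KO replicate 1, above the 0.536 to 0.559 of the other KO libraries.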

How the results depend on the processing

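Mpc2, Pdhb, Dld and Pdhx kept a positive log2 fold change in all 20 alternatives, and Pdhb, Dld and Pdhx passed in none. The count of all genes called, 2 at first, was 992 with DESeq2, 701 with limma-voom, 71 without a low-count filter, 1575 and 1293 with the muscle and marrow covariates, 458 without both replicates 4, 1 with the replicate block (Mpc2 at 0.76, adjusted p = 0.481), and 2 to 4 with single libraries left out. The count of members called was 1 with DESeq2, limma-voom, either covariate and without both replicates 4, always Mpc2, and 0 in all other settings. The count of members with an unadjusted p under 0.05, 4 at first, was 1 with library totals (16.1% of all genes), 2 with the replicate block (9.76%), 2 with the muscle covariate (27.1%; Mpc2 higher, Pdk1 lower), 2 with the principal transcript lengths in the trend (14.0%), 1 without both replicates 4, and between 1 and 4 with single libraries left out. Other pyruvate genes called were 0 of 94 at first. They were 3 of 94 with DESeq2 (6.48% of all genes), 2 of 94 with limma-voom (4.02%) and 1 of 95 without a filter (0.228%). With the muscle covariate 3 of 94 were called (9.03% of all genes) and with the marrow covariate 4 of 94 (7.41%). Without both replicates 4 the count was 1 of 94 (2.62% of all genes). Fdx1 was among the called genes in each of these settings except the first.

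Signs turned for genes that did not pass. With the muscle covariate Mpc1 was at -0.15, Pdha1 -0.14, Dlat -0.11, Pdk1 -0.30, Pdk2 -0.34 and Pdk4 -0.45. Without both replicates 4 they were at -0.15, -0.068, -0.041, -0.18, -0.25 and -0.28. With limma-voom Mpc1 was at -0.039, Pdk1 at -0.0084 and Pdk2 at -0.0018. With library totals Pdk1 was at -0.014 and Pdk4 at -0.028, with the median of all genes shifted by -0.10. With the principal lengths Mpc1 was at -0.033. With single libraries left out Mpc1 ranged from -0.024 to 0.22, Pdk1 from -0.056 to 0.22, Pdk2 from -0.082 to 0.26 and Pdk4 from -0.13 to 0.34. The cause was not tested.

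With the longest transcript as length, Mpc2 over Mpc1 was 0.351 in WT, and this length scaled the KO values by the same factor. Pdk4 then made up 38.8% in KO and 38.9% in WT. Pdk4 over Pdk2 was 0.739 in KO and 0.751 in WT, and Pdhb over Pdha1 was 0.722 in KO and 0.650 in WT. The principal transcript, chosen after seeing the data, gave the same values for Pdk4, 2.20 in KO and 1.37 in WT for Mpc2 over Mpc1, and 1.13 in KO and 1.02 in WT for Pdhb over Pdha1. The muscle share was higher in KO by 2.12 percentage points, and by 0.992 to 2.71 with single libraries left out, an alternative also added after seeing the data. The replicate numbers did not pair the libraries: deviations of same-numbered libraries from their group means correlated at -0.19, -0.17, -0.25 and -0.57.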
